A study of Mus musculus with 6 samples.

Results

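The Wnt pathway genes described here were 60 listed genes of 41388 in the deposited tables. They were taken by symbol and comprised 19 Wnt ligands, 10 frizzled receptors, 4 co-receptors, 10 secreted inhibitors, 4 genes of β-catenin and its destruction complex, 4 TCF/LEF transcription factors, 5 feedback targets and 4 R-spondin or LGR genes. All 60 were found. The libraries were bulk RNA-seq of primary chondrocytes, the cells of cartilage, from femoral heads of male mice aged 21 days, kept in culture for 2 days without treatment. The groups were 3 Postn-/- mice, homozygous for a targeted null allele of Postn that every cell carries, and 3 wt mice, both of mixed B6/129 strain and, by the study methods, bred as littermates. Postn encodes periostin, a matrix protein, and the comparison asked how the transcripts of the genotypes differed at baseline.

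Wnt ligands are secreted lipid-modified proteins that bind frizzled receptors together with a co-receptor. With LRP5 or LRP6 as co-receptor, β-catenin escapes a destruction complex of APC, AXIN and GSK3β, enters the nucleus and acts with TCF/LEF factors on target genes, some of which feed back on the pathway. With ROR receptors, Wnt5a-type ligands signal without β-catenin. Secreted inhibitors hold the pathway in check by binding the ligands (WIF1, the SFRP family, FRZB) or the LRP co-receptors (DKK1, SOST), whereas R-spondins, through LGR receptors, protect frizzleds from removal by the ligases ZNRF3 and RNF43. In cartilage, Wnt signaling takes part in chondrocyte differentiation, hypertrophy and joint formation, and FRZB and WIF1 are well-known products of articular and resting chondrocytes.

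Total counts were between 20587640 and 26572260 per library, at which 3 counts correspond to 0.113 to 0.146 CPM, the count scaled to the library total, a floor that covers counting error only. A gene was tested when it exceeded 1 CPM in at least 2 samples, which 14533 genes did after rRNA genes were left out. Levels are given below as TMM-normalized CPM, and levels of different genes are compared only as RPKM, the same value per kilobase of exon. Postn was at 4.66, 4.27 and 5.67 in the Postn-/- mice and 10.1, 10.3 and 6.90 CPM in the wt mice, lower in every Postn-/- sample but not absent from any. On the log2 scale the difference, Postn-/- minus wt, was −0.91 with a standard error (SE) of 0.22. The unadjusted p = 0.00362 and the adjusted p = 0.717 (Benjamini-Hochberg, over all tested genes) come from edgeR's quasi-likelihood fit, as do the p-values below unless another setting is named. The 12 chondrocyte markers summed to between 26000 and 43900 CPM in all 6 libraries, so the labelled cell type carried its markers. Endothelial markers summed to 5.04 to 11.4 CPM and myeloid and blood markers to 19.2 to 50.5 CPM, and these, like the fibroblast and osteoblast markers, overlapped between the genotypes. The summed muscle markers did not overlap (16.6, 16.4 and 19.4 CPM in the Postn-/- mice, 19.6, 27.9 and 25.3 CPM in the wt mice). Among the single muscle markers, only Acta1 was without overlap. Acta1 was at 2.77, 4.51 and 4.43 in the Postn-/- mice and 4.96, 15.9 and 8.15 CPM in the wt mice. Myh1, Myh4, Ckm, Myod1 and Tnnt3 each overlapped. In bulk samples a change in the share of a cell type and a change in RNA per cell cannot be told apart.

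The chondrocytes expressed the pathway as a set with abundant secreted inhibitors and sparse ligands. Of the 60 genes, 41 passed the filter and 19 did not. Above 1 CPM were 41, 39 and 38 genes in the Postn-/- mice, and 38, 40 and 40 in the wt mice, in the order of their replicate numbers here and below. In all 6 samples 36 genes exceeded 1 CPM, in 1 to 5 samples 7 did, and 17 did so in none. No gene of the list was at 0 counts in every sample. The highest level belonged to Wif1, which encodes a Wnt-binding inhibitor, with a mean of 173 RPKM over the 6 samples, above 97.6% of all tested genes. Frzb, which encodes a frizzled-like decoy for Wnt ligands, followed at 88.5 RPKM, above 95.1% of tested genes. Ctnnb1 (β-catenin) was at 61.6 RPKM, Gsk3b at 29.5 and Lgr4, an R-spondin receptor gene, at 24.6. Among the ligands, Wnt5a led at 3.07 RPKM, and among the frizzleds Fzd9 at 5.92 RPKM.

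**Figure D1:**
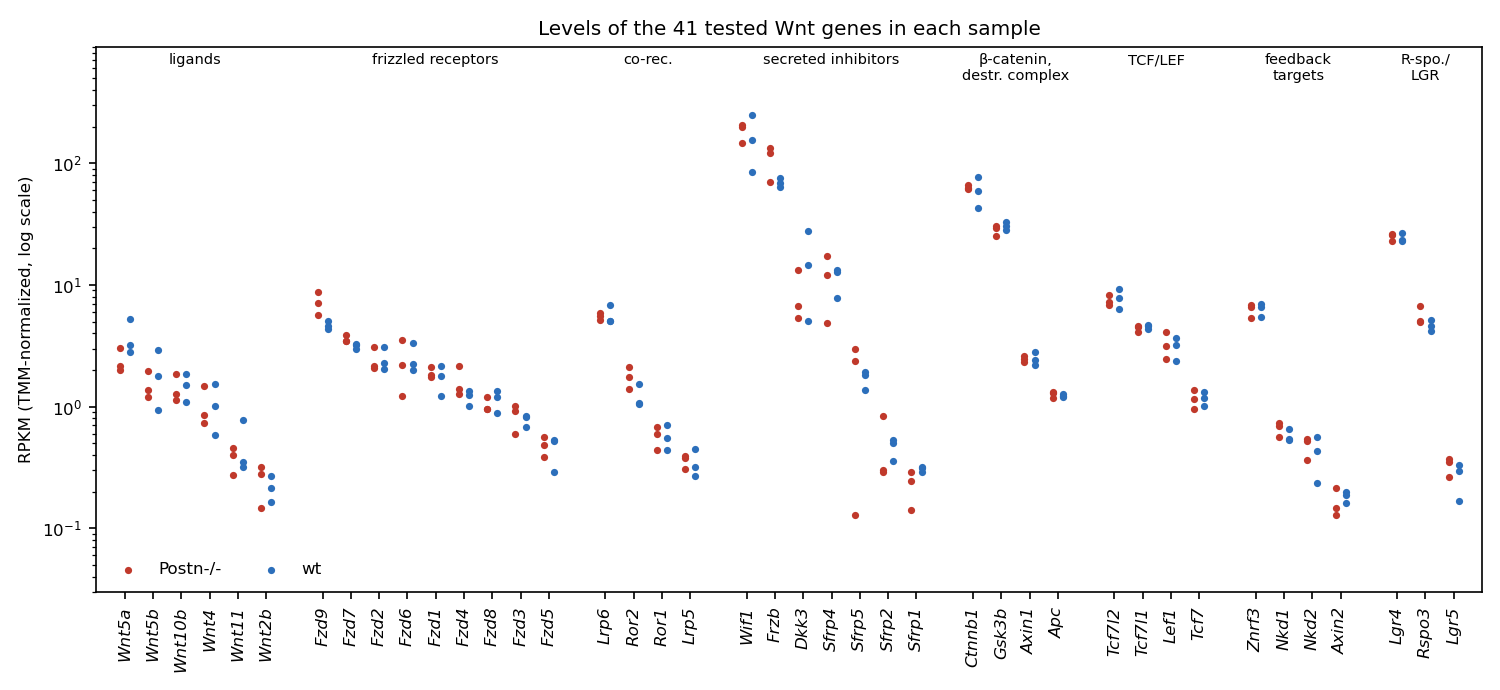
Levels of the 41 tested Wnt genes in each sample, as TMM-normalized RPKM on a log scale, by role of the encoded protein. Each point is 1 library, red for Postn-/- and blue for wt. Wif1 and Frzb stand above the other genes, Wnt5a leads the ligands, and in most genes the genotypes overlap.

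Summed over the secreted inhibitors, the level was 365, 233 and 342 RPKM in the Postn-/- mice and 355, 169 and 261 RPKM in the wt mice. Summed over the ligands, it was 8.16, 9.40 and 6.58 RPKM in the Postn-/- mice and 7.17, 13.2 and 8.81 RPKM in the wt mice. In each library the inhibitors therefore exceeded the ligands, by 12.8 to 52.0 times, and the genotypes overlapped in both sums. Wif1 and Frzb together made up 87.4% to 95.8% of the inhibitor RPKM in the 6 libraries. Wnt5a made up 21.0%, 32.1%, 32.9%, 36.9%, 39.6% and 44.5% of the ligand RPKM across the libraries in rising order, with Postn-/- replicate 2 the lowest and wt replicate 1 the highest.

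Between the genotypes, most Wnt genes differed little. The median log2 fold change of the 41 tested genes was 0.04, beside 0.0042 over all tested genes, and the values ran from −0.92 (Dkk3) to 0.64 (Frzb). With single samples left out, the median of the Wnt genes ran from −0.01 (without wt replicate 3) to 0.11 (without wt replicate 2). Of the 41, 30 had an absolute log2 fold change under 0.25 and 5 one of 0.5 or more. The unadjusted threshold of 0.05 was met by 3 of the 41 genes (7.32%), beside 6.3% of all 14533 tested genes, so the share was near the background. Frzb and Fzd9 were the 2 higher in Postn-/- (3.95% of all genes were called in this direction) and Wnt5a was the 1 lower (2.35%). No gene of the list reached an adjusted p of 0.05 in the edgeR fit, in DESeq2's Wald test or in either voomWithQualityWeights fit, beside 0.0138% of all genes (2 genes) in the edgeR test. The unadjusted count was 3 with DESeq2, 3 with voomWithQualityWeights and 5 with voomWithQualityWeights and surrogate variables, beside 6.01%, 9.2% and 13.7% of all genes in these fits. In 3 of the 41 genes (7.32%) the 3 Postn-/- and 3 wt samples did not overlap, beside 13.6% of all tested genes. These were Fzd7 and Fzd9, higher in Postn-/- (7.03% of all genes), and Sfrp1, lower in Postn-/- (6.57% of all genes). The 41 genes are those that passed the filter, not all 60.

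The precision sets what these values can show. For 9 of the 41 genes the 95% interval of the log2 fold change lay within 0.5 of 0, and for 27 it lay within 1 of 0. Over all tested genes these shares were 33.9% and 77.6%. Over the 41 Wnt genes the median ratio of the highest to the lowest of the 6 samples was 1.76, beside 1.57 over all tested genes. In 16 of the 41 this ratio was over 2. Neither the interval shares nor these ratios were matched for level, and low counts alone widen both. Axin2, for example, had 15 to 29 counts per sample. The part of level in these values was not tested.

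**Figure D2:**
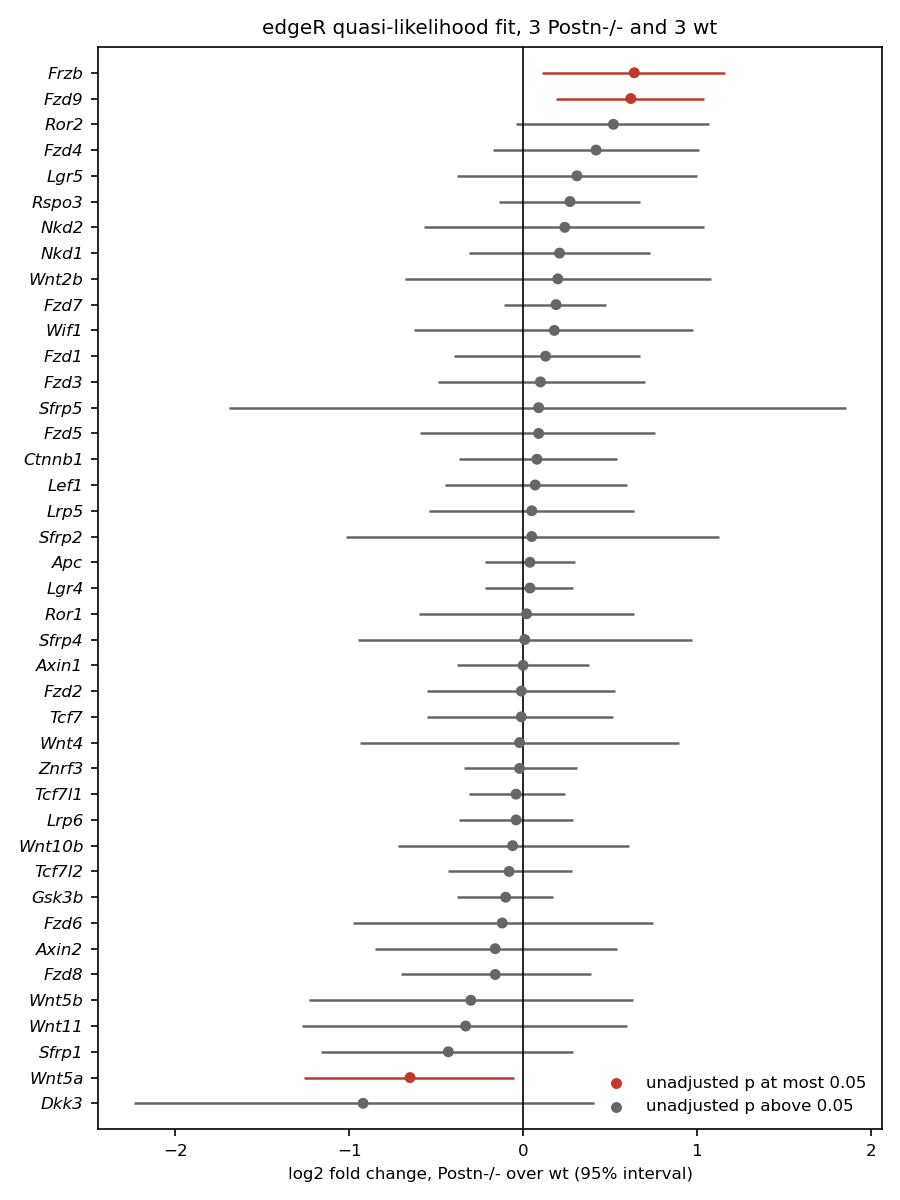
Log2 fold change, Postn-/- over wt, of the 41 tested Wnt genes with its 95% interval from the edgeR quasi-likelihood fit on 3 Postn-/- and 3 wt samples. The 3 genes with an unadjusted p of at most 0.05 are in red (Frzb 0.64, Fzd9 0.62, Wnt5a −0.65), and the intervals of the other genes include 0.

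Of the 19 Wnt ligand genes, 6 passed the filter, and Wnt5a, the main ligand of β-catenin-independent signaling, was the one with the clearest difference. Wnt5a (chromosome 14 of GRCm38, 28504750 to 28527448, plus strand) was at 23.5, 15.5 and 16.9 in the Postn-/- mice and 25.0, 40.9 and 22.1 CPM in the wt mice. Postn-/- replicate 1 lay above wt replicate 3, so the genotypes overlapped, and wt replicate 2 stood above all others. The means were 18.6 ± 4.31 CPM in Postn-/- and 29.3 ± 10.1 CPM in wt (SD, n = 3 each). The log2 fold change was −0.65 (SE 0.26, 95% interval −1.26 to −0.05, unadjusted p = 0.0373 in edgeR, adjusted p = 0.717), a level 1.57-fold lower in Postn-/-. It kept an unadjusted p of at most 0.05 in 9 of 14 other settings. The call was lost with the replicate number as a block (−0.62), with voomWithQualityWeights (−0.52) and without wt replicate 2 (−0.34), Postn-/- replicate 2 (−0.54) or Postn-/- replicate 3 (−0.59). An antisense gene, Gm2670, overlaps 4.58% of the exon bases of Wnt5a, and reads from both cannot be told apart where counting does not use strand.

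The other tested ligands gave no difference beyond the spread between replicates. Wnt5b, a close relative of Wnt5a, was at 3.66, 5.21 and 3.19 in the Postn-/- mice and 2.50, 7.74 and 4.70 CPM in the wt mice. Wnt4, a ligand known from growth plate cartilage, was at 3.58, 6.14 and 3.10 in the Postn-/- mice and 2.46, 6.38 and 4.22 CPM in the wt mice. In both genes wt replicates 1 and 2 were the lowest and the highest of the 6 libraries, so the wt samples enclosed the Postn-/- samples. Wnt10b, an activator of the β-catenin branch that favours bone formation, was at 2.97, 4.31 and 2.62 in the Postn-/- mice and 2.54, 4.30 and 3.50 CPM in the wt mice. The log2 fold changes were −0.30 for Wnt5b (SE 0.40), −0.02 for Wnt4 (0.40) and −0.06 for Wnt10b (0.29). Wnt11 (−0.33) and Wnt2b (0.20) were near the filter, with 21 to 62 and 13 to 28 counts per sample.

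The other 13 ligand genes did not pass the filter and had at most 17 counts in any sample. Wnt3a, a standard activator of the β-catenin branch, was counted 7 to 17 times per sample, Wnt3 4 to 16 times, Wnt1 1 to 10 times, Wnt10a 2 to 12 times and Wnt16, a ligand known from joint tissue, 5 to 10 times. Wnt8a had 2 to 14 counts, Wnt9a 0 to 11, Wnt7a 1 to 9, Wnt8b 0 to 8 and Wnt7b 0 to 6. Wnt2, Wnt6 and Wnt9b had at most 3 counts in every sample, which is at or under the floor of 3 counts. Without the filter on low counts, Wnt8a (9, 14 and 3 counts in the Postn-/- mice, 2, 4 and 3 counts in the wt mice) had an unadjusted p = 0.0435 and an adjusted p = 0.833 in edgeR, and the other 12 ligand genes did not pass the unadjusted threshold.

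Of the 10 frizzled receptor genes 9 were tested, and Fzd9 had the lowest p of the tested Wnt genes in the reported edgeR fit. With no low-count filter, Frzb (unadjusted p = 0.00276 in edgeR) and Wnt5a (0.00449) lay below Fzd9 (0.00655). Frzb lay below Fzd9 in further settings, among them the replicate block (unadjusted p = 0.0155 beside 0.0212 in edgeR). Fzd9 (chromosome 5, 135248938 to 135251230, minus strand), a receptor gene known for a role in osteoblasts and bone mass, was at 19.9, 16.4 and 13.0 in the Postn-/- mice and 10.5, 10 and 11.6 CPM in the wt mice. Every Postn-/- sample lay above every wt sample, with Postn-/- replicate 3 nearest to wt. The means were 16.4 ± 3.46 CPM and 10.7 ± 0.825 CPM (SD, n = 3 each), and the log2 fold change was 0.62 (SE 0.18, 95% interval 0.19 to 1.04, unadjusted p = 0.00989 in edgeR, adjusted p = 0.717), a 1.53-fold higher level. Fzd9 kept an unadjusted p of at most 0.05 in 14 of 14 other settings, with log2 fold changes of 0.45 to 0.76, and its adjusted p over these settings was 0.286 to 0.983. Of the RPKM summed over the frizzleds, Fzd9 gave 34.1%, 36.1% and 29.7% in the Postn-/- mice and 24.5%, 24.3% and 28.3% in the wt mice.

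Fzd7, the frizzled gene at the next highest level, was at 17.4, 15.7 and 15.6 in the Postn-/- mice and 14.9, 14.5 and 13.5 CPM in the wt mice. The genotypes did not overlap, yet the difference was small, with a log2 fold change of 0.19 (SE 0.13, unadjusted p = 0.181 in edgeR). The frizzled genes summed to 25.5, 19.7 and 19.1 RPKM in the Postn-/- mice and to 18.7, 18.0 and 18.0 RPKM in the wt mice, without overlap. Without Fzd9 the sums were 16.8, 12.6 and 13.4 RPKM in the Postn-/- mice and 14.1, 13.6 and 12.9 RPKM in the wt mice, which overlapped. The other tested frizzled genes had log2 fold changes from −0.16 (Fzd8) to 0.42 (Fzd4, SE 0.26), with Fzd1 at 0.13, Fzd3 at 0.10, Fzd5 at 0.09, Fzd2 at −0.01 and Fzd6 at −0.12, and their genotypes overlapped. Fzd6, linked to cell polarity, spread most among them, from 5.04 CPM in Postn-/- replicate 2 to 14.6 CPM in Postn-/- replicate 1. Fzd10 was counted 2 to 16 times per sample and was not tested.

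The co-receptor genes overlapped between the genotypes. Lrp6, which encodes a co-receptor of the β-catenin branch, was at 54.2, 57.2 and 50.8 in the Postn-/- mice and 67.3, 49.8 and 49.4 CPM in the wt mice. The highest was wt replicate 1, the genotypes overlapped, and the log2 fold change was −0.04 (SE 0.14). Lrp5, its paralog, was lower in level (mean 0.352 RPKM beside 5.58 RPKM for Lrp6), with a log2 fold change of 0.05. Ror2, which encodes a tyrosine kinase-like receptor of Wnt5a, was at 5.87, 7.44 and 8.91 in the Postn-/- mice and 4.46, 6.56 and 4.50 CPM in the wt mice. Its log2 fold change of 0.52 did not pass the unadjusted threshold (SE 0.24, 95% interval −0.04 to 1.07, unadjusted p = 0.0655 in edgeR, adjusted p = 0.717), and wt replicate 2 lay above Postn-/- replicate 1. It passed in 3 of 14 other settings, among them without Postn-/- replicate 1 and without wt replicate 2. Ror1, the related receptor gene, had a log2 fold change of 0.02.

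Among the secreted inhibitors, Frzb was higher in Postn-/- at the unadjusted threshold. Frzb (chromosome 2, 80411970 to 80447625, minus strand), also known as Sfrp3, was at 431, 225 and 390 in the Postn-/- mice and 224, 205 and 243 CPM in the wt mice. Postn-/- replicates 1 and 3 lay above all wt samples, whereas Postn-/- replicate 2 lay within the wt range, so the genotypes overlapped. The means were 349 ± 109 CPM in Postn-/- and 224 ± 18.8 CPM in wt (SD, n = 3 each). The log2 fold change was 0.64 (SE 0.23, 95% interval 0.11 to 1.16, unadjusted p = 0.0236 in edgeR, adjusted p = 0.717), a 1.55-fold higher level in Postn-/-. It kept an unadjusted p of at most 0.05 in 11 of 14 other settings and lost it without Postn-/- replicate 1 (0.46), Postn-/- replicate 3 (0.54) or wt replicate 2 (0.58). The 12 chondrocyte markers summed to 43900, 32800 and 42300 CPM in the Postn-/- mice and to 26000, 39700 and 32800 CPM in the wt mice. Thus the same Postn-/- samples, 1 and 3, were highest for Frzb and for these markers. The other samples did not share one order, since wt replicate 2, the highest wt sample for the markers, was the lowest of all 6 for Frzb. Of the 12 markers, 2 met the unadjusted threshold (6.3% of all genes), both higher in Postn-/- (the collagen genes Col2a1, 0.68, and Col11a2, 0.52). The log2 fold changes of the 12 markers were positive in 8 and negative in 4, with a median of 0.20. The 5 markers of superficial zone and synovial lining summed to 852, 214 and 433 CPM in the Postn-/- mice and to 450, 138 and 288 CPM in the wt mice. Most of each sum was Prg4, at 838, 206 and 422 CPM beside 439, 131 and 279 CPM. Of the 3 tested markers, Prg4 (0.79) and Erg (0.23) had positive log2 fold changes and Cd55 (−0.27) a negative one. The part of chondrocytes or of superficial zone and synovial lining cells in the Frzb values was not tested.

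**Figure D3:**
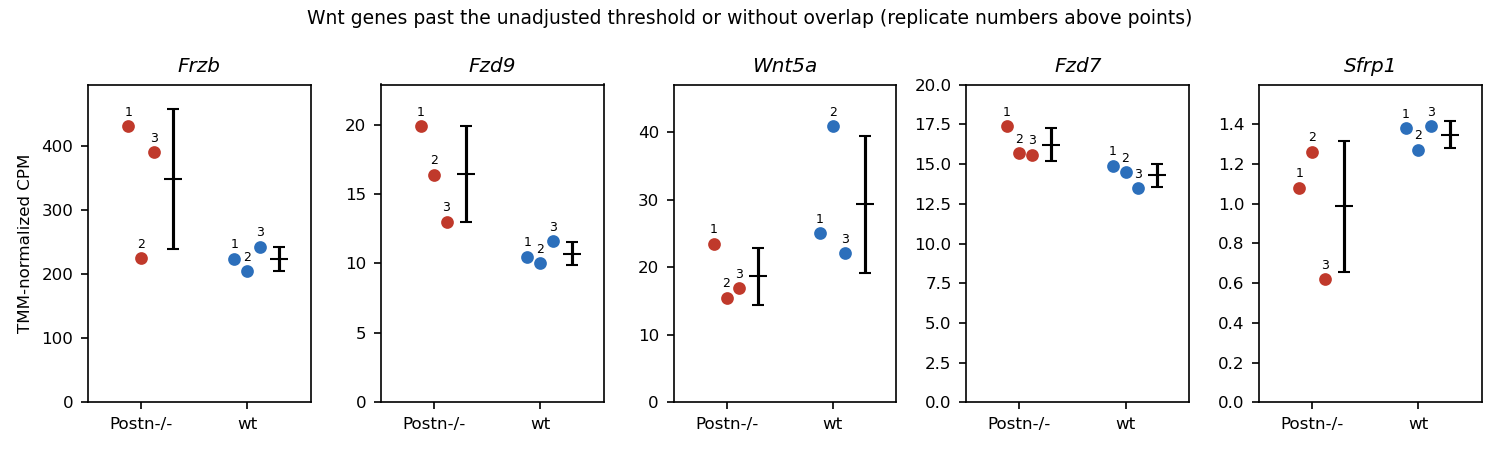
TMM-normalized CPM of the 5 Wnt genes, of the 41 tested, with an unadjusted p of at most 0.05 or with genotypes that did not overlap. Points are single mice with their replicate number, and the bars beside them show the mean and SD of 3 mice. Fzd9, Fzd7 and Sfrp1 are without overlap, whereas Frzb and Wnt5a overlap in 1 Postn-/- sample each.

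Wif1 (chromosome 10, 121033960 to 121100650, plus strand), the most abundant of the inhibitor transcripts, was at 479, 353 and 503 in the Postn-/- mice and 602, 204 and 377 CPM in the wt mice. The wt samples enclosed the Postn-/- samples, and the log2 fold change of 0.18 was smaller than its standard error of 0.35 (95% interval −0.63 to 0.98, unadjusted p = 0.627 in edgeR). With voomWithQualityWeights and surrogate variables it was 0.40 (SE 0.11, unadjusted p = 0.00824 and adjusted p = 0.271 from limma), past the unadjusted threshold, and over 14 other settings the adjusted p was 0.271 to 0.990. Sfrp1, which encodes a soluble frizzled-like inhibitor, was at 1.08, 1.26 and 0.620 in the Postn-/- mice and 1.38, 1.27 and 1.39 CPM in the wt mice. The genotypes did not overlap by a narrow margin, on 13 to 36 counts per sample, and the log2 fold change was −0.43 (SE 0.31, unadjusted p = 0.205 in edgeR). Dkk3, whose product resembles the DKK inhibitors without a settled action on LRP6, had the lowest log2 fold change of the tested Wnt genes. It was at 44.1, 18.0 and 22.6 in the Postn-/- mice and 93.8, 16.8 and 49.1 CPM in the wt mice. The wt samples alone spanned from the lowest to the highest of all 6 values, and the log2 fold change of −0.92 had a standard error of 0.57 (95% interval −2.24 to 0.41, unadjusted p = 0.149 in edgeR). Dkk3 passed the unadjusted threshold without wt replicate 2, with the replicate block, with no low-count filter and with surrogate variables in voomWithQualityWeights. Its log2 fold change was −1.34 without wt replicate 2 and −0.22 without wt replicate 1, and with single samples left out it ran from −1.39 to −0.22.

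The SFRP genes showed wide spread between mice of one genotype. Sfrp4, found in mesenchymal tissue, was at 30.2, 21.2 and 8.48 in the Postn-/- mice and 13.7, 23.3 and 22.5 CPM in the wt mice. Sfrp5 was at 5.63, 0.244 and 4.48 in the Postn-/- mice and 2.58, 3.48 and 3.69 CPM in the wt mice. Postn-/- replicate 2, with 6 counts, was 23.1 times below the highest sample for Sfrp5. Sfrp2 was at 0.620 to 1.81 CPM. The log2 fold changes were 0.01 for Sfrp4 (SE 0.42), 0.09 for Sfrp5 (0.77) and 0.05 for Sfrp2 (0.46), so the intervals were too wide to exclude changes of either sign. Without Postn-/- replicate 2, Sfrp5 had a log2 fold change of 0.64 (unadjusted p = 0.0458 and adjusted p = 0.642 in edgeR), and over 13 other settings it ran from −0.70 to 0.64, with an adjusted p of 0.486 to 0.995. Dkk1 and Sost, which encode the LRP-binding inhibitors best known from bone, were not tested. Dkk1 was counted 5 to 16 times per sample and Dkk2 1 to 7 times. Sost was counted 4, 2 and 0 times in the Postn-/- mice and 0 times in each wt sample, which allows up to 3 counts. Without the low-count filter its unadjusted p = 0.0398 and its adjusted p = 0.833 in edgeR.

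The genes of β-catenin and its destruction complex overlapped between the genotypes, with log2 fold changes from −0.10 to 0.08. Ctnnb1, which encodes β-catenin, was at 336, 313 and 320 in the Postn-/- mice and 220, 396 and 299 CPM in the wt mice. The Postn-/- samples lay between the wt extremes, and the log2 fold change was 0.08 (SE 0.20). Gsk3b, which encodes the kinase that marks β-catenin for removal, was at 301, 246 and 291 in the Postn-/- mice and 321, 279 and 300 CPM in the wt mice, a log2 fold change of −0.10 (SE 0.12). The scaffold genes Apc and Axin1 had log2 fold changes of 0.04 (SE 0.11) and 0.00 (0.16). For Gsk3b, Apc and Axin1 the 95% intervals, −0.38 to 0.17, −0.22 to 0.30 and −0.38 to 0.38, exclude changes of more than 0.5 in either direction. An exon of Ulk4 on the opposite strand overlaps 14.6% of the exon bases of Ctnnb1.

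The TCF/LEF genes, whose products carry β-catenin to DNA, had log2 fold changes from −0.08 to 0.07. Tcf7l2, at 7.65 RPKM the most abundant of them, was at 62.9, 60.0 and 72.4 in the Postn-/- mice and 81.3, 55.9 and 68.5 CPM in the wt mice (log2 fold change −0.08, SE 0.15). Tcf7l1, a factor known mainly as a repressor, was at 17.8, 16.1 and 18.1 in the Postn-/- mice and 18.4, 18.0 and 16.9 CPM in the wt mice (−0.04, SE 0.12). Lef1 was at 27.0, 35.7 and 21.4 in the Postn-/- mice and 20.4, 27.7 and 31.8 CPM in the wt mice (0.07, SE 0.22). All 3 overlapped between the genotypes, as did Tcf7 (−0.01, SE 0.23). Lef1 shares 13.7% of its exon bases with an antisense gene, Gm43352.

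Feedback targets are transcribed when β-catenin acts, and Axin2 is the most widely used among them. Axin2 was low, at 1.17, 0.813 and 0.715 in the Postn-/- mice and 0.884, 1.04 and 1.10 CPM in the wt mice. These are 15 to 29 counts per sample, the genotypes overlapped, and the log2 fold change was −0.16 (SE 0.30, 95% interval −0.85 to 0.54, unadjusted p = 0.617 in edgeR). Nkd1 and Nkd2, which encode inhibitors of Dishevelled, had log2 fold changes of 0.21 (SE 0.22) and 0.24 (0.35). Znrf3, which encodes a ligase that removes frizzleds, was far higher in level than Axin2 (6.31 RPKM beside 0.173 RPKM) and was at 54.2, 42.1 and 52.3 in the Postn-/- mice and 55.2, 51.9 and 43.2 CPM in the wt mice, a log2 fold change of −0.02 (SE 0.14). Its paralog Rnf43 exceeded 1 CPM in 1 sample and was not tested. It was counted 25, 31 and 20 times in the Postn-/- mice and 21, 14 and 19 times in the wt mice. Normalized to 1.00, 1.26 and 0.953 CPM beside 0.807, 0.633 and 0.910 CPM, the genotypes did not overlap, with Postn-/- higher. Of the 4 tested targets the log2 fold change was positive in 2 and negative in 2.

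The R-spondin and LGR genes overlapped between the genotypes as well. Lgr4 was at 151, 155 and 134 in the Postn-/- mice and 135, 157 and 137 CPM in the wt mice, a log2 fold change of 0.04 (SE 0.11, 95% interval −0.22 to 0.29). Rspo3, the R-spondin gene at the highest level here, was at 11.9, 12.2 and 16.2 in the Postn-/- mice and 11.0, 12.4 and 10.1 CPM in the wt mice, with wt replicate 2 above Postn-/- replicates 1 and 2. Its log2 fold change was 0.27 (SE 0.17), and that of Lgr5, a stem cell marker gene, was 0.31 (0.30). Rspo2 was counted 48 times in Postn-/- replicate 1 and 12 to 20 times in the other 5 samples and was not tested.

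In 3 of the genes the order of the 6 libraries was the same as, or the reverse of, their order by hypertrophic markers, which are made by enlarging chondrocytes near mineralizing cartilage. This was seen after the values were known and is a description of 6 libraries. The 6 markers (Col10a1, Ihh, Mmp13, Ibsp, Panx3 and Alpl) summed to 3580, 7990 and 2990 CPM in the Postn-/- mice and to 2000, 9410 and 4310 CPM in the wt mice, so the genotypes overlapped and replicate 2 of each was the highest. Wnt4 and Wnt5b had this order from lowest to highest, and Wif1 had it in reverse. Thus in wt replicate 2, with the highest marker sum, Wif1 was at 204 CPM and Wnt5b at 7.74 CPM, and in wt replicate 1, with the lowest, Wif1 was at 602 CPM and Wnt5b at 2.50 CPM. Of the 41 tested Wnt genes 3 (7.32%) had the same or the reverse order, beside 129 of all 14533 tested genes (0.888%). Because this order was singled out after the values were known, these shares cannot be read as a test of enrichment. Of the 6 markers themselves, Alpl was the 1 with the order of their sum. The order of the sum did not change when Mmp13 was left out of it, and the 3 Wnt genes kept their order on the deposited CPM scale. Among 51 other tested markers of all lists 1 had this order, the osteoblast gene Sp7, and among 99 other pathway genes 3 did (3.03%, Porcn, Draxin and Runx2). The summed osteoblast markers did not have it. The part of hypertrophic or osteoblast-like cells in these levels was not tested.

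**Figure D4:**
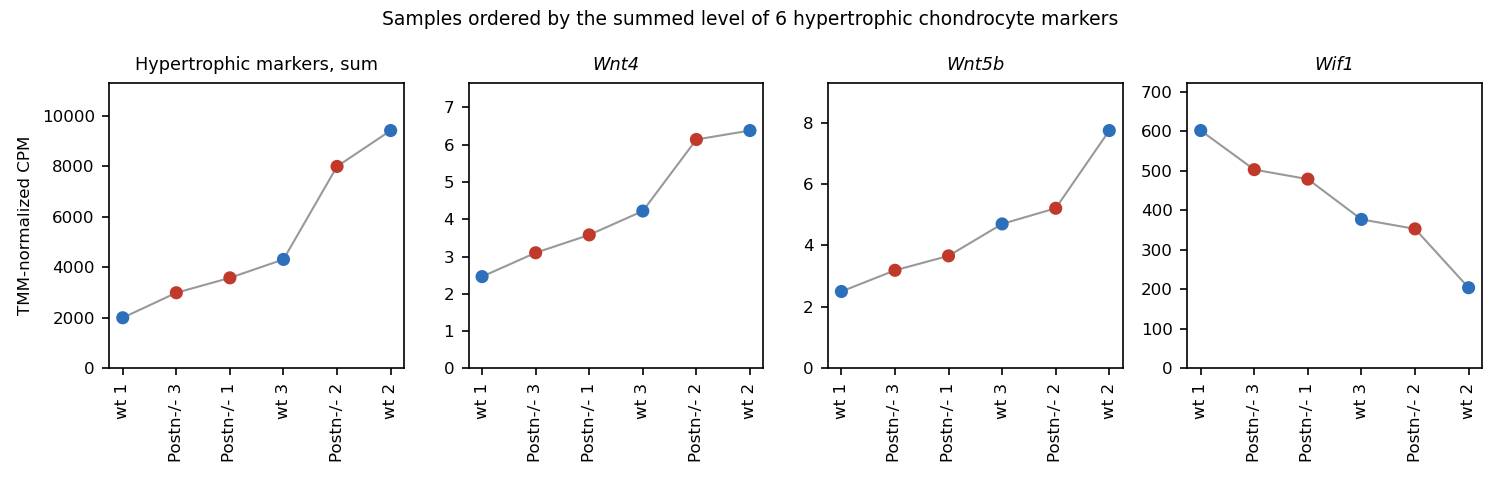
TMM-normalized CPM of the 6 summed hypertrophic chondrocyte markers, Wnt4, Wnt5b and Wif1, with the 6 libraries placed in the order of the marker sum. Red points are Postn-/- and blue points wt, and lines join the points only to guide the eye. From the lowest to the highest marker sum, 2000 to 9410 CPM, Wnt4 goes from 2.46 to 6.38 CPM and Wif1 from 602 to 204 CPM.

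The stretches upstream of the start sites of these 3 genes are shown because their levels followed one order across the libraries. They come from the RefSeq promoter table on GRCm38.p6 and are given 5′ to 3′ on the strand of the gene, ending before the annotated start. Wif1 is at chr10:121033754-121033959 on the plus strand, Wnt4 at chr4:137277385-137277488 on the plus strand and Wnt5b at chr6:119544348-119544597 on the minus strand. Capitals mark the letters of the GC box, GGGCGG, read on either strand, where matches may overlap.
Wif1: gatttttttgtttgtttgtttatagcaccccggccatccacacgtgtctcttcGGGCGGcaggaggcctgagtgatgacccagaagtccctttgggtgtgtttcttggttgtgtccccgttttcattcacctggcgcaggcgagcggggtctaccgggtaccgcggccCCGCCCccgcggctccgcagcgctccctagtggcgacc
Wnt4: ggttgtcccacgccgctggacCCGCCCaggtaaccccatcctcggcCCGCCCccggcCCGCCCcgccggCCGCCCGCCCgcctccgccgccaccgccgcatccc
Wnt5b: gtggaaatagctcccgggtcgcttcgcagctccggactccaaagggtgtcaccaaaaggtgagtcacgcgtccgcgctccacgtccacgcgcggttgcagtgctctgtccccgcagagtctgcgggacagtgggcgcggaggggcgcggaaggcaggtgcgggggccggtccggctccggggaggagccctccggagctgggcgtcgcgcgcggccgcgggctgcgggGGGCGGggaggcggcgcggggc

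All 3 stretches hold a GC box, with 2 matches in Wif1, 5 in Wnt4 and 1 in Wnt5b. They are rich in G and C, at 61.7% in Wif1, 83.7% in Wnt4 and 75.2% in Wnt5b. None holds the TCF/LEF letters CTTTGAT or CTTTGAA on either strand, which says only that these letters are not in these windows. Of the 60 Wnt genes, 41 had a promoter window of 300 bases. These are not the 41 tested genes, since they include untested genes such as Wnt1 and Wnt3a. Of the 41 with a window, 29 (70.7%) held a GC box in at least 1 window, beside 38.2% of all 27025 genes with a window. The shares were not matched for gene type, level or number of start sites. CTTTGAT was in a window of 2 of the 41 genes (4.88%, Wnt11 and another start site of Wnt5b), beside 4.29% of all genes, and CTTTGAA in 1 (2.44%, Dkk1), beside 5.93% of all genes. A match of letters is a description and not a measured site.

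A wider list of 114 other Wnt pathway genes covered ligand secretion, further inhibitors and co-receptors, Dishevelled and casein kinases, nuclear cofactors, the planar cell polarity and calcium branches and reported targets. Of these, 99 were tested, 5 (5.05%) met the unadjusted threshold, beside the 6.3% of all genes, and none passed the adjusted threshold in the edgeR fit. Their median log2 fold change was 0.05. Higher in Postn-/- were Scrib, a polarity scaffold gene, with a log2 fold change of 0.65 (SE 0.20, unadjusted p = 0.0128 in edgeR), and Dvl2, 1 of the Dishevelled genes that pass on the frizzled signal, with 0.49 (0.16, unadjusted p = 0.0170 in edgeR). Dvl2 was at 11.4, 10.4 and 11.2 in the Postn-/- mice and 8.30, 8.51 and 6.71 CPM in the wt mice, without overlap. Lower in Postn-/- was its paralog Dvl3, at 9.24, 9.07 and 8.82 CPM beside 10.8, 12.3 and 11.3 CPM in the wt mice, also without overlap, with a log2 fold change of −0.34 (SE 0.14, unadjusted p = 0.0436 in edgeR). Myc, a growth gene among the reported β-catenin targets, was lower as well (−0.32, SE 0.13, unadjusted p = 0.0374 in edgeR), as was Peg3, an imprinted zinc finger gene (−0.41, SE 0.16, unadjusted p = 0.0329 in edgeR). Of the 99 tested genes, 2 were higher in Postn-/- without overlap (Scrib and Dvl2), beside 7.03% of all genes. Lower without overlap were 4 (Dvl3, Myc, and Amer1 and Rac1, which did not meet the unadjusted threshold), beside 6.57% of all genes. Over 14 other settings the unadjusted threshold was kept in 14 for Scrib, 12 for Dvl2, 5 for Dvl3 and 10 each for Myc and Peg3. The call was lost without Postn-/- replicate 3 (0.47) or wt replicate 3 (0.39) for Dvl2, and for Dvl3 with 5 of the 6 samples left out in turn (−0.35 to −0.29), all but wt replicate 1. Dvl3 also lost it with the replicate number as a block (−0.34) and with upper quartile normalization (−0.32). The same held with no low-count filter (−0.36) and among genes above 1 CPM in all 6 samples (−0.33). Without Postn-/- replicate 1, wt replicate 2 or wt replicate 3 neither Myc (−0.35, −0.22 and −0.33) nor Peg3 (−0.32, −0.33 and −0.38) passed, nor did Myc without Postn-/- replicate 3 (−0.24) or Peg3 without Postn-/- replicate 2 (−0.39). The summed level of the 12 proliferation markers was 526, 930 and 421 CPM in the Postn-/- mice and 1460, 667 and 730 CPM in the wt mice, and all 12 log2 fold changes were negative, 1 with an unadjusted p of at most 0.05. The part of cycling cells in the Myc value was not tested.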

How the data were processed

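Bulk RNA-seq libraries of femoral head chondrocytes from 3 Postn-/- and 3 wt mice were analysed, grouped by the labels. Per the labels, RNA was amplified with a SMARTer kit, which does not mark strand, and read as 50-base single ends. Per the study's methods and its processing notes, alignment by the authors was to Ensembl release 76 with STAR 2.0.4b (the notes name build mm9, but the deposited gene positions are those of GRCm38), and featureCounts 1.4.5 counted reads with a unique, unambiguous place. Use of strand is not given in the sources used here. The deposited counts are whole reads per gene. The deposited CPM is the count over the library total, and the deposited RPKM is that CPM per kilobase, and both were only checked against the counts. Normalized CPM and RPKM in the text were computed here with TMM factors, since the deposited count column is not normalized.

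Identifiers were joined to GENCODE M21 (40340 of 41388, 97.5%). Following the low-expression filter of the study's methods, genes that exceed 1 CPM in 2 or more samples were tested. The methods also drop ribosomal genes, which was read here as rRNA genes (355). In R 4.3.3, edgeR 4.0.16 tested genotype by quasi-likelihood after TMM scaling, two-sided, without covariates, with Benjamini-Hochberg adjustment over all 14533 genes, after a check on simulated counts. A standard error is the size of the log2 fold change divided by √F. Alternatives were DESeq2 1.42.0, other normalizations and filters, voomWithQualityWeights (limma 3.58.1) without and with 2 surrogate variables (sva 3.50.0), a replicate block, and leaving out each sample. The rule takes genes by symbol and uses no measured value, but the Wnt genes, the wider pathway list and the marker lists were chosen with earlier results of these data known. Named genes were, by rule, Postn, the 2 most abundant genes of each role, those with an unadjusted p of at most 0.05 or without overlap, all TCF/LEF and feedback genes, genes not tested and up to 10 other pathway genes; other list members were singled out after their values were seen.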

Additional observations from a re-analysis of the deposited data

How the results depend on the processing

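The count of Wnt genes with an unadjusted p of at most 0.05 was 3 in the reported fit, 5 with voomWithQualityWeights and surrogate variables, 6 with no filter beyond 1 count in the 6 samples (60 genes tested), and 1 to 3 when single samples were left out, with 1 (Fzd9) without Postn-/- replicate 3. Of all genes, 6.3% passed in the reported fit, 13.7% with surrogate variables, 5.24% with no filter and 2.98% to 8.71% without single samples, with 2.98% without Postn-/- replicate 3 and 8.71% without wt replicate 2. The 6 with no filter included Sost and Wnt8a. The count past the adjusted threshold was 0 in every setting run. For the other Wnt pathway genes the unadjusted count was 5 in the reported fit, 18 with voomWithQualityWeights and surrogate variables, 8 with no filter, and 1 to 8 when single samples were left out, with 2 without Postn-/- replicate 3, 8 without wt replicate 2 and 1 without wt replicate 3. With the replicate number as a block, 3 Wnt genes (Dkk3, Frzb and Fzd9) and 6 other pathway genes passed the unadjusted threshold, as did 8.17% of all genes, and the log2 fold change of Wnt5a was −0.62. Samples that share a number came from different mice. Across genes, their departures from the genotype means had r values of 0.0824, 0.155 and 0.143, and each sample correlated best with its own number, which is a hint from the data and not from the design. Of 292 values of 21 named Wnt genes under alternatives, 256 kept direction and side of the unadjusted threshold, 8 lost it, 4 gained it and 24 changed sign. Changes of sign were 0.04 for Lrp6, 0.01 for Tcf7l1, −0.13 for Lef1 and 0.09 for Znrf3 with voomWithQualityWeights, 0.01 for Tcf7 and 0.00 for Znrf3 with upper quartile normalization, and 0.00 for Tcf7 among genes above 1 CPM in all 6 samples, a filter that Sfrp1 and Axin2 did not pass. Without single samples the log2 fold changes ran from −0.63 to 0.17 for Wnt5b, −0.12 to 0.12 for Lrp6, −0.14 to 0.62 for Wif1, −0.10 to 0.32 for Ctnnb1, −0.14 to 0.11 for Tcf7, −0.07 to 0.01 for Tcf7l1, −0.20 to 0.07 for Tcf7l2, −0.14 to 0.23 for Lef1, −0.05 to 0.52 for Nkd2, −0.12 to 0.09 for Znrf3 and −0.00 to 0.11 for Lgr4. The causes were not tested. Precision rests on 3 mice per genotype with a common biological coefficient of variation of 0.208, and the 19 untested genes had 0 to 48 counts.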

Other observations

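Outside the 60 genes, the most abundant transcripts of the wider Wnt list were those of Sdc4, a cell-surface proteoglycan that can bind Wnt ligands, at a mean of 825 RPKM, Id2, a reported target, at 358 RPKM, and Tnfrsf11b, which encodes osteoprotegerin, at 319 RPKM. The ligand secretion genes Snx3, Wls and Vps35 were at 202, 190 and 107 RPKM, far above the ligand genes themselves. None of these 6 passed the unadjusted threshold in the edgeR test. With voomWithQualityWeights and surrogate variables Id2, Tnfrsf11b and Wls passed it, as did 13.7% of all genes. Without wt replicate 2 Snx3 passed it, as did 8.71% of all genes. In the reported edgeR fit the log2 fold changes of the 6 genes were −0.16 for Sdc4, 0.20 for Id2, −0.26 for Tnfrsf11b, 0.19 for Snx3, 0.19 for Wls and 0.08 for Vps35. Tnfrsf11b varied most among them, from 104 to 684 RPKM across the 6 libraries, with a standard error of 0.56. Lgr6, an R-spondin receptor gene, had the largest difference among the tested genes of the wider list (log2 fold change 1.10, standard error 0.55, unadjusted p = 0.0798 from the edgeR test). Lgr6 passed the unadjusted threshold with voomWithQualityWeights and surrogate variables, with no low-count filter, and without Postn-/- replicate 1 or wt replicate 1, and in no other setting. It was at 6.15, 32.3 and 16.3 in the Postn-/- mice and 12.5, 6.33 and 6.61 CPM in the wt mice, so the genotypes overlapped and Postn-/- replicate 2 stood above the rest.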
